A study of Drosophila melanogaster with 7 samples.

Results

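The genes described here lie in the pericentromeric heterochromatin of chromosome 3, on either side of its centromere. A protein-coding gene was taken when its 5′ end, in dm6 coordinates, lay on 3L at 23000000 or beyond or on 3R at 4100000 or below, which are the borders the study set for these regions. Of 13821 protein-coding genes (17699 genes in all) with counts, 39 met this rule, 30 on 3L and 9 on 3R. Another 6 genes that the annotation places in the same regions were not analysed here. RNA was sequenced from whole *Drosophila* embryos at stage 5, when the zygotic genome is activated, in 3 HP1-KD libraries and 4 control libraries. HP1-KD embryos (Bloomington 33400) were laid by females whose germ line expressed a short hairpin against HP1a under a Gal4 driver, mated with their own brothers. Control embryos carry the genotype label of Bloomington stock 36303. The tissue label calls every library wild type, and titles and genotype labels were followed instead. The knockdown is partial by choice, since embryos fully depleted of HP1a stop before stage 5. Only the embryos that reached this stage were collected, and the study's contact maps show an inversion on another chromosome in them. Stock and knockdown therefore cannot be told apart in any comparison below.

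Pericentromeric heterochromatin is the repeat-rich DNA around centromeres. Its histones carry methylation of lysine 9 of histone H3, and HP1a binds that mark through its chromodomain. Most of this DNA consists of satellites and transposon remnants, but genes are scattered through it. Several of them are essential, and many have very long introns filled with old insertions. Genes of this kind have long been known in *Drosophila* to depend on a heterochromatic surrounding for full expression, in contrast to euchromatic genes, which tend to be silenced when moved there.

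Counts per library ranged from 8678092 to 16983585.5, and counts on protein-coding genes from 2866577 to 10262181.5. Genes of ribosomal RNA took up 65.7% ± 24.6 of the counts in HP1-KD libraries (SD, n = 3), against 24.5% ± 15.2 in control libraries (SD, n = 4). They exceeded 40% in HP1-KD replicates 1 and 3 and in control replicate 1. *Su(var)205* (also *Su(var)2-5*), which encodes HP1a, was at 38.5% of the control mean in HP1-KD libraries (log2 fold change −1.38, edgeR adjusted p = 0.00231). The 15 blastoderm markers with counts summed to between 1947 and 2915 CPM in HP1-KD libraries, below the 3292 to 3460 CPM of control libraries, and 1 of the 15 was called lower. HP1-KD replicate 1 held RNA of the yolk protein genes, with 737, 550 and 760 counts on *Yp1*, *Yp2* and *Yp3*, where no other library exceeded 23. The 13 follicle cell and yolk genes summed to 320.6 CPM there, against 0.717 to 4.14 CPM in the other HP1-KD libraries and 0.349 to 0.900 CPM in control libraries, with *Vm26Ab* and *Vm32E* at 0 throughout. Nearly all of the 320.6 CPM came from *Yp1*, *Yp2* and *Yp3*, so this sum does not show a rise of the other genes on the list. Of the 13 markers of later stages only 1 had enough counts to be tested, and it was not called, so the list cannot compare stages by calls. Their sums, *elav* included, were 8.95 to 17.6 CPM in HP1-KD and 8.87 to 74.9 CPM in control libraries. Most of the sum was *elav* alone in every library, so it says little on the other markers of the list. Control replicate 3 stood apart from the other control libraries over all genes tested. Its log2 normalized counts correlated at 0.9046, 0.9395 and 0.9568 (Pearson r) with control replicates 1, 2 and 4. Those correlated at 0.9732 to 0.9845 with one another. Without control replicate 3, edgeR called 1212 of 7683 genes at an adjusted p under 0.05, against 688 of 8008 with it. Control replicate 3 also differed in 2 stage-dependent genes. It had 1062 normalized counts of *elav*, against 113 to 288 in the others, and 626 of *osk*, against 2431 to 2855. The sum of 4 markers of germ line precursors, which includes *osk* itself, was lowest there, at 103 CPM. It was 299.6 to 394 CPM in HP1-KD and 296 to 369.9 CPM in the other control libraries. The part of these differences in the results below was not tested.

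Of the 39 genes, 27 had enough counts to be compared, and 15 of the 27 were lower in HP1-KD embryos at an adjusted p under 0.05 (edgeR's quasi-likelihood test, two-sided, adjusted over 8008 genes). Across all genes tested, 4.9% were called lower, or 8.59% in either direction, and across protein-coding genes 3.31% were lower and 3.64% higher. None of the 27 was called higher, against 3.7% of all genes tested, and 1 had an unadjusted p under 0.05 in that direction. DESeq2 and limma-voom also called 0 of them higher. In 24 of the 27 the log2 fold change was below 0. The median was −0.54, beside −0.03 over all genes tested. All HP1-KD libraries lay below all control libraries for 17 of the 27 genes, where 15.1% of all genes tested did so, and above them for 1, where 15.2% did so. RNA was taken from whole embryos, and the hairpin acted in the germ line of their mothers. Fewer cells expressing a gene, less of its RNA made per cell and less of its RNA supplied by the mother therefore cannot be told apart.

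These counts hold 2 genes, *nAChRalpha4* and *CG40472*, that passed the filter on low counts only through their control libraries. Among the 25 genes with at least 10 counts in every library, 13 were lower. With no filter on low counts, 14 of all 39 genes were lower and 0 higher. At an unadjusted p under 0.05 in that edgeR fit, 19 were lower and 4 higher. The labels do not say whether replicates come from separate collections, so the p-values measure the spread between these libraries. Without HP1-KD replicate 2, or without HP1-KD replicate 3, 9 genes were lower. When the 3 libraries rich in ribosomal RNA were left out, only *AGO3* and *nAChRalpha4* were called, of 28 genes tested (25 of 8502 over all genes, 1 HP1-KD library against 3), while the median stood at −0.74. In that comparison the lone HP1-KD library was assumed to vary like the control libraries.

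**Figure D1:**
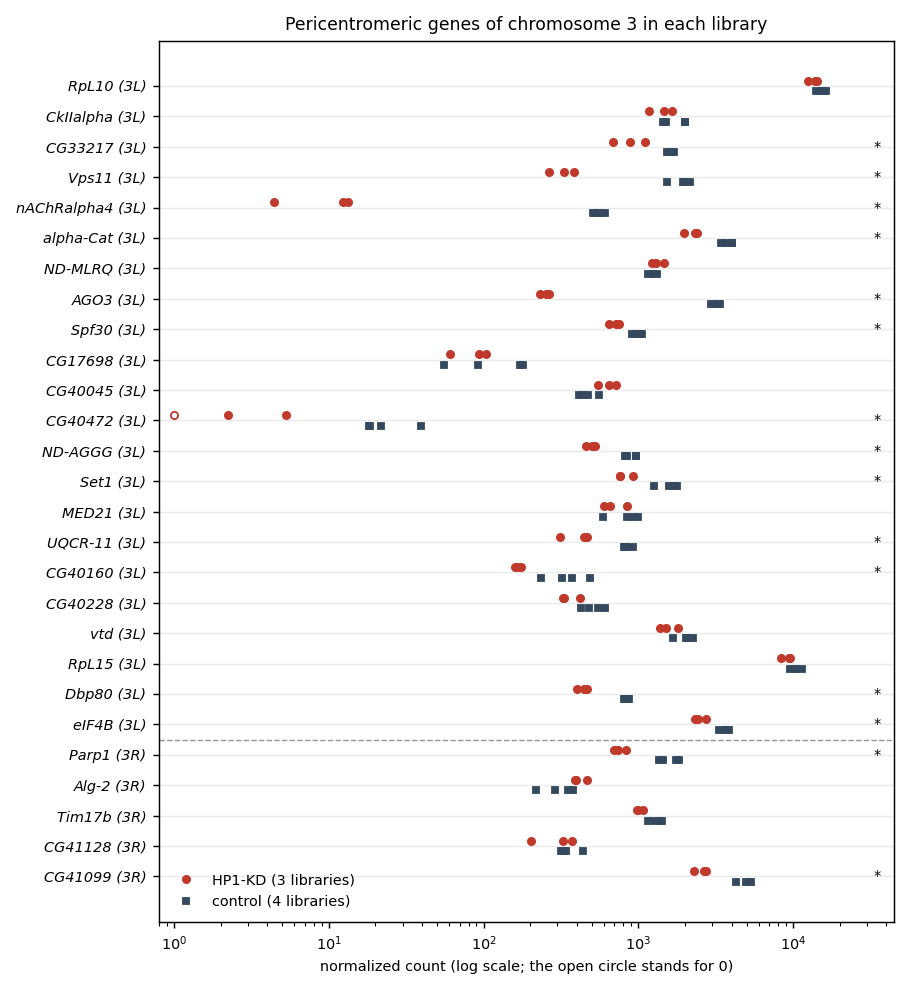
Normalized counts of the 27 genes tested, in each of 3 HP1-KD libraries (circles, upper row of each gene) and 4 control libraries (squares, lower row), on a log scale. Genes run from the edge of the 3L region inwards and, below the dashed line, from the deeper to the outer genes of 3R. Asterisks mark the 15 genes with an adjusted p under 0.05, among which *nAChRalpha4*, *AGO3*, *Vps11* and *CG40472* show the widest gaps.

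The role lists used to name genes held only some of the genes of each role. Of the list for chromatin and chromosomes, *Parp1* and *Set1* fell and *vtd* did not pass the test. Of that for translation and RNA, *Dbp80* and *eIF4B* fell and *RpL15* did not pass. Of that for synapse and membrane traffic, *nAChRalpha4* fell, *Alg-2* did not pass, and *Snap25* and *lovit* were not tested. Of that for cytoskeleton and adhesion, *alpha-Cat* fell and *Myo81F* was not tested. The list for steroid hormone and metabolism had no tested member. The genes are described below in wider groups, formed after their values were seen, beginning with those that fell furthest.

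*AGO3*, *nAChRalpha4* and *Vps11* fell furthest among the genes with over 500 normalized counts in every control library, and all 3 lie within the outer 0.555 Mb of the 3L region. Both limits were set after the values were seen. *CG40472*, which has few counts, fell further than *Vps11* (log2 fold change −3.05) and lies 1927 kb inside the edge. *AGO3* (FBgn0250816, 3L from 23554593 to 23689640, plus strand) encodes an Argonaute protein of the PIWI clade that, with Aubergine, drives the ping-pong amplification of piRNAs in the germ line. It had 231, 265 and 252 normalized counts in HP1-KD replicates 1 to 3, and 3228, 3277, 2961 and 3356 in control replicates 1 to 4. The spread within each condition was small beside the gap between them, and no HP1-KD library came near a control library. With a mean of 249 ± 16.97 in HP1-KD (SD, n = 3) and 3206 ± 171 in control embryos (SD, n = 4), its transcripts were at 7.78% of control. The log2 fold change was −3.68 (SE 0.11, edgeR adjusted p = 7.82e-06), and between −3.72 and −3.61 when any 1 library was omitted.

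*nAChRalpha4* (FBgn0266347, 3L from 23206669 to 23287448, plus strand) encodes a subunit of nicotinic acetylcholine receptors, the ligand-gated channels of fast excitatory transmission in insect neurons. Normalized counts were 4.45, 13.2 and 12.4 in the HP1-KD libraries, resting on 1.5, 9.5 and 6 estimated counts. The control libraries had 543, 567, 506 and 606. Transcripts of this gene were near the limit of detection in HP1-KD embryos, at 1.80% of the control mean (log2 fold change −5.71, SE 0.28, edgeR adjusted p = 9.38e-05). It had the largest fall of the 27 genes. Its exons overlap on the other strand with those of *lncRNA:CR46475*, for which no counts were analysed here, and the handling of strand is not given in the sources used here, so reads of the 2 genes cannot be told apart.

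*Vps11* (FBgn0052350, 3L from 23147656 to 23150499, minus strand) encodes a core subunit of the tethering complexes that dock vesicles at endosomes and lysosomes. It is annotated as a gene of 1 exon, with no intron and no transposon insertion. HP1-KD libraries had 265, 384 and 331 normalized counts, and control libraries 2159, 1935, 1529.6 and 1977. The groups did not overlap, and the mean of 326 ± 59.8 in HP1-KD embryos (SD, n = 3) was 17.2% of the control mean of 1900.3 ± 266 (SD, n = 4). The log2 fold change was −2.54 (SE 0.18, edgeR adjusted p = 0.000404). An antisense gene, *asRNA:CR45164*, overlaps its exon but had 0 counts in every HP1-KD library and at most 3.5 in a control library.

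The genes between and beside these 3 had log2 fold changes closer to 0. Going inwards from *Vps11*, the untested *CG34031* comes next, then *nAChRalpha4* with −5.71, *alpha-Cat* with −0.75, *ND-MLRQ* with 0.10, *AGO3* with −3.68 and *Spf30* with −0.49 (log2 fold changes). The 5′ ends of *alpha-Cat* and *ND-MLRQ* lie 1226 bp apart on opposite strands. *alpha-Cat* encodes alpha-Catenin, which ties the cadherin complex of adherens junctions to actin. Its level was 2330, 2402 and 1956 normalized counts in HP1-KD libraries, against 3393, 3599.6, 4016 and 4008 in control libraries, with no overlap (log2 fold change −0.75, SE 0.12, edgeR adjusted p = 0.0104). *ND-MLRQ*, which encodes a subunit of mitochondrial complex I, had 1459, 1226 and 1294 in HP1-KD and 1151, 1314, 1249 and 1233 in control libraries. These ranges overlapped, and the log2 fold change of 0.10 did not pass the test (SE 0.10, edgeR adjusted p = 0.531). The ratio of the pair within a library needs no scaling between libraries. It was 1.60, 1.96 and 1.51 counts of *alpha-Cat* per count of *ND-MLRQ* in HP1-KD libraries, and 2.95, 2.74, 3.22 and 3.25 in control libraries, so that the groups were separate. No test was run on such ratios.

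Another pair with neighbouring 5′ ends, *CkIIalpha* and *RpL10*, lies at the outer edge of the 3L region, 1601 bp apart on opposite strands. *CkIIalpha* encodes the catalytic subunit of casein kinase II, and *RpL10* a protein of the large ribosomal subunit. *CkIIalpha* had 1637, 1171 and 1472 normalized counts in HP1-KD and 1989, 1991, 1511 and 1452 in control libraries (log2 fold change −0.28, SE 0.17, edgeR adjusted p = 0.298). *RpL10* had 13784, 14215 and 12371 in HP1-KD and 14040.3, 16385, 15243 and 15340.4 in control libraries (−0.18, SE 0.12, edgeR adjusted p = 0.334). Both overlapped between the conditions. Their ratio was 0.107 ± 0.0210 in HP1-KD (SD, n = 3) and 0.114 ± 0.0217 in control libraries (SD, n = 4), a difference smaller than the spread within either group.

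**Figure D2:**
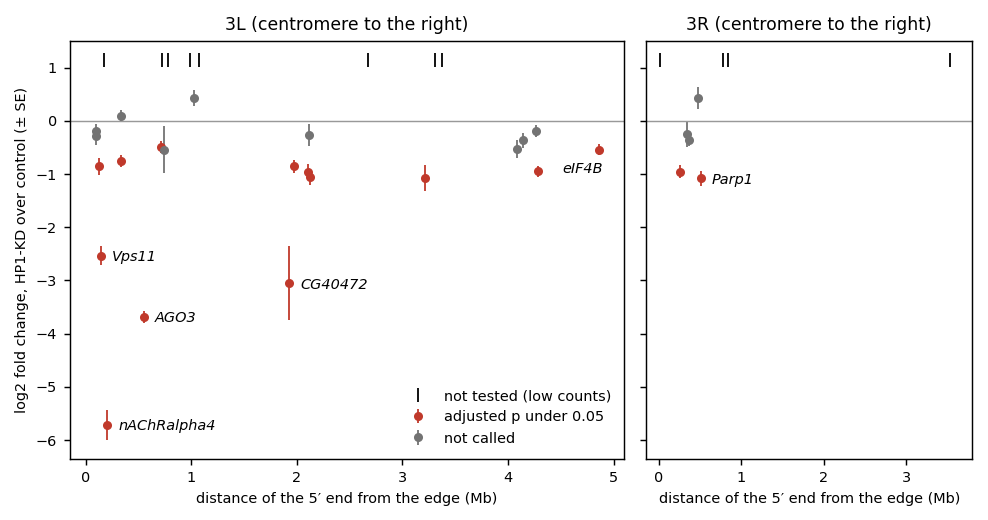
Log2 fold change of HP1-KD over control (± SE) against the distance of each 5′ end from the edge of the region, in Mb, on 3L (left, 22 genes tested) and 3R (right, 5 genes tested). Ticks at the top mark the 12 genes with too few counts to be tested. Falls occur at all depths of 3L. *nAChRalpha4*, *AGO3* and *Vps11* stand near the edge, beside genes with values closer to 0, and *CG40472* (−3.05) stands further in, at 1.93 Mb.

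Of the genes for chromatin and chromosome proteins, 2 of 3 fell. *Parp1* (FBgn0010247, 3R from 3461351 to 3587054) encodes poly(ADP-ribose) polymerase, which modifies chromatin proteins. It had 734, 830.3 and 699 normalized counts in HP1-KD libraries, against 1451, 1815, 1364 and 1762 in control libraries. All HP1-KD values were below all control values, at 47.2% of the control mean (log2 fold change −1.08, SE 0.14, edgeR adjusted p = 0.00504). *Set1* (FBgn0040022, 3L from 25107594 to 25115180) encodes a methyltransferase for lysine 4 of histone H3. Its values were 916, 763 and 763 in HP1-KD and 1787, 1253, 1687 and 1575 in control libraries (log2 fold change −0.95, SE 0.15, edgeR adjusted p = 0.0106). The groups were separate, but *Set1* no longer passed without HP1-KD replicate 2 (edgeR adjusted p = 0.0564) or HP1-KD replicate 3 (edgeR adjusted p = 0.0582). *vtd* encodes Rad21, the kleisin subunit that closes the cohesin ring. It had 1792, 1502 and 1373 normalized counts in HP1-KD and 2266, 2032 and 2063 in control replicates 1, 2 and 4, with 1671 in control replicate 3, which lay inside the HP1-KD range. Its log2 fold change of −0.37 did not pass the test (SE 0.14, edgeR adjusted p = 0.135), and did so without control replicate 3 (−0.45, edgeR adjusted p = 0.0365).

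Among all tested genes of transcription, RNA handling and translation, *Dbp80*, *eIF4B* and *Spf30* fell, and *RpL15*, *RpL10* and *MED21* did not pass the test. *Dbp80* (FBgn0024804, 3L from 27279316 to 27422159) encodes a DEAD-box RNA helicase of mRNA export from the nucleus and lies 4279 kb inside the edge. It had 463, 442 and 401 normalized counts in HP1-KD and 825, 801, 865 and 861 in control libraries. No HP1-KD library reached the control range, and the mean was 51.9% of the control mean (log2 fold change −0.94, SE 0.11, edgeR adjusted p = 0.00238). Its neighbour *RpL15*, whose 5′ end lies 12061 bp away, encodes another large-subunit ribosomal protein. *RpL15* had 9524, 9454 and 8304 in HP1-KD and 9490.4, 11419.5, 10341 and 10251 in control libraries (−0.19, SE 0.11, edgeR adjusted p = 0.289). There were 0.0479 ± 0.00101 counts of *Dbp80* per count of *RpL15* in HP1-KD libraries (SD, n = 3) and 0.0812 ± 0.00753 in control libraries (SD, n = 4), with no overlap.

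*eIF4B* encodes a translation initiation factor that assists the helicase eIF4A, and its 5′ end is the deepest on 3L, 4858 kb inside the edge. It had 2733, 2426 and 2320.0 normalized counts in HP1-KD libraries, against 3339, 3659.8, 3650.1 and 3843 in control libraries (log2 fold change −0.54, SE 0.10, edgeR adjusted p = 0.0208). It no longer passed without HP1-KD replicate 2 or 3 or control replicate 2 or 4 (edgeR adjusted p between 0.0501 and 0.0879). *Spf30* is named after a human splicing factor related to SMN. It had 720.5, 752 and 641 in HP1-KD and 906, 969, 1025 and 1053 in control libraries (−0.49, SE 0.11, edgeR adjusted p = 0.0370). Its call was kept only without control replicate 1 or 3, and without any other library the edgeR adjusted p lay between 0.0728 and 0.134. Both genes were nonetheless lower in every HP1-KD library than in any control library. *MED21*, for a subunit of the Mediator complex, overlapped between the conditions, with 838, 652 and 595 in HP1-KD and 999, 918, 590.3 and 848 in control libraries (−0.27, SE 0.20, edgeR adjusted p = 0.397). The exons of *MED21* and *Set1* overlap on opposite strands, and reads from the overlap cannot be told apart.

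Of 4 tested nuclear genes of mitochondrial proteins, 2 fell. *ND-AGGG*, for a subunit of complex I, had 525, 461 and 505 normalized counts in HP1-KD and 818, 967, 838 and 969 in control libraries, at 55.3% of the control mean (log2 fold change −0.86, SE 0.12, edgeR adjusted p = 0.00651). *UQCR-11*, for a subunit of complex III, had 445, 463 and 312 in HP1-KD and 833, 924, 818 and 811 in control libraries, at 48.0% (−1.06, SE 0.16, edgeR adjusted p = 0.00891). Neither gene overlapped between the conditions. *Tim17b* encodes a component of the translocase that imports proteins across the inner membrane. Its values were 1072, 989 and 974 in HP1-KD and 1244, 1422, 1161 and 1374 in control libraries. They did not overlap, but the log2 fold change of −0.36 missed the threshold (SE 0.11, edgeR adjusted p = 0.0816). It passed with DESeq2's Wald test (adjusted p = 0.0218) and without control replicate 3 (−0.42, edgeR adjusted p = 0.0243). *ND-MLRQ*, the other complex I gene, had a log2 fold change of 0.10, as given above.

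Of the 8 tested genes known by a CG number, 4 fell. *CG41099* (FBgn0039955, 3R from 3846729 to 3868401) was the most abundant of them, with 2651, 2715 and 2270.3 normalized counts in HP1-KD and 5196, 4967, 4241 and 5323 in control libraries, or 51.6% of the control mean (log2 fold change −0.95, SE 0.12, edgeR adjusted p = 0.00439). It is also the tested gene nearest to the edge on 3R, 253 kb inside it. *CG33217* had 1098, 879 and 686.5 in HP1-KD and 1589.8, 1602, 1519.7 and 1693 in control libraries (−0.85, SE 0.16, edgeR adjusted p = 0.0197). It was not called without HP1-KD replicate 2 or 3 or control replicate 4 (edgeR adjusted p between 0.0528 and 0.0837). *CG40160* had 173, 160.2 and 167 in HP1-KD and 319, 485, 235 and 370.2 in control libraries (−1.08, SE 0.25, edgeR adjusted p = 0.0380). The HP1-KD values were close together, while those of the control libraries were spread widely. *CG40472* was the lowest of the called genes, with 1, 4 and 0 estimated counts in HP1-KD and 18.5, 52, 29.5 and 30 in control libraries. Its log2 fold change of −3.05 rests on these few counts (SE 0.69, edgeR adjusted p = 0.0374), and it was −4.36 without HP1-KD replicate 2 and −2.57 without HP1-KD replicate 3. For both *CG40160* and *CG40472* the call was kept only without control replicate 1 or 3, and without any other library the edgeR adjusted p lay between 0.0641 and 0.158.

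The other 4 were not called. *CG40228* had 422, 329.7 and 325 normalized counts in HP1-KD and 547, 610.0, 425 and 477 in control libraries, narrowly without overlap (log2 fold change −0.52, SE 0.17, edgeR adjusted p = 0.0941). It passed with DESeq2's Wald test (adjusted p = 0.0445) and without control replicate 3 (−0.61, edgeR adjusted p = 0.0290). *CG41128* ranged from 203 to 374 in HP1-KD and from 318 to 442 in control libraries, with overlap (edgeR adjusted p = 0.471). *CG17698* ranged from 60.9 to 103 in HP1-KD and from 55.7 to 179.7 in control libraries (edgeR adjusted p = 0.428). *CG40045* had 649, 546 and 719.6 in HP1-KD and 475, 555, 437 and 415 in control libraries, with the value of HP1-KD replicate 2 inside the control range. It had the largest log2 fold change above 0, at 0.44 (SE 0.15, edgeR adjusted p = 0.105). *Alg-2*, for a calcium-binding protein of the EF-hand family, was the only gene tested with all HP1-KD values above all control values. It had 467, 395 and 389 in HP1-KD and 351, 378, 219.7 and 291 in control libraries (0.43, SE 0.20, edgeR adjusted p = 0.202). The 3 values above 0, those of *CG40045*, *Alg-2* and *ND-MLRQ*, turned negative under scaling by the plain count totals, which put the median of all genes at −1.15, and that of *ND-MLRQ* also without the libraries rich in ribosomal RNA.

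The 12 genes that were not tested had at most 16.5 counts in any library. In the edgeR fit without a filter on low counts, none of them was called at an adjusted p under 0.05. At an unadjusted p under 0.05, that fit of all 39 genes had 19 lower and 4 higher. The main fit of 27 genes had 18 lower and 1 higher at the same limit. Counts this low can miss a change. In normalized counts, 3 estimated counts came to between 3.97 and 6.67 in HP1-KD libraries and between 1.86 and 3.02 in control libraries. Those with a known product include some of the longest genes of the regions, most of them for proteins of differentiated cells. *Myo81F*, for an unconventional myosin, covers 1966 kb of 3R and had 2.5 to 4 counts in HP1-KD and 2.5 to 6 in control libraries. *Pzl*, a relative of the mechanically gated Piezo channel, covers 709 kb and had 0 to 0.5 counts in HP1-KD and 3.5 to 9 in control libraries. *lovit*, which transports histamine into synaptic vesicles of photoreceptors, covers 434 kb and had 0 to 1 in HP1-KD and 0 to 4 in control libraries. *Snap25*, a SNARE protein of synaptic vesicle fusion, covers 225 kb and had 1 to 1.5 in HP1-KD and 0 to 2 in control libraries.

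A few untested genes had counts mainly in HP1-KD libraries. *spok*, which encodes a cytochrome P450 of ecdysone synthesis, had 0.5, 4.5 and 1.5 counts in HP1-KD libraries and 0 in every control library. *CG42402* had 1.5, 3.5 and 1 in HP1-KD libraries and 0.5, 0, 0.5 and 0 in control libraries. *CG43968* had 5, 0 and 0 in HP1-KD libraries and 0 in every control library, all of its counts being in the library with yolk protein RNA. The remaining genes, *CG34031*, *CG40298*, *CG40470*, *CG41284* and *CG42598*, had 0 to 3 counts in HP1-KD and 0 to 16.5 in control libraries.

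Falls were found both near the edge and far inside it, as the plot of change by distance shows. Over the 27 genes the Spearman correlation of the distance with the log2 fold change was −0.02 (Pearson r = 0.16), and over the 22 of 3L it was 0.02 (r = 0.25). Without *Vps11*, *nAChRalpha4* and *AGO3*, a choice made after their values were seen, it was −0.25 (r = −0.12, n = 19). With the edges moved 500 kb away from the centromere, which adds genes outside the regions, the Spearman correlation was −0.48 (n = 81), and with the edges moved as far inwards it was 0.33 (n = 16). These are descriptions over genes measured in the same 7 libraries, and genes are not independent. Within 1 Mb of the edges 8 of 15 genes tested were lower, with a median of −0.54, and further in 7 of 12 were lower, with a median of −0.70. On 3R all 5 genes tested lie between 253 and 513 kb from the edge, so the deeper part of that arm contributed no value. Of these 5, *Parp1* and *CG41099* fell, and the median was −0.36.

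Genes just outside and just inside the edge were then set side by side. The nearest tested protein-coding gene outside it on 3L, *nrm* (FBgn0262509), has its 5′ end 1.63 kb from the border. It had 15.6, 18.5 and 16.5 normalized counts in HP1-KD and 114, 62.4, 243 and 159 in control libraries, a log2 fold change of −3.08 (SE 0.51, edgeR adjusted p = 0.0136). Like *nAChRalpha4* and *CG40472*, *nrm* passed the filter on low counts only through its control libraries. A gene that enters in this way is bound to be lower in HP1-KD libraries, so its fall says little about the border. *Mes2* and *BoYb*, the next genes outwards at 54.3 and 98.1 kb, had log2 fold changes of −0.03 and 0.09. On the inner side, *RpL10* and *CkIIalpha* lie at 95.5 and 97.1 kb with the values given above. On 3R the nearest outer genes, *CG12581*, *beta-Man* and *aux*, lie 74.6 to 112 kb from the border. Their log2 fold changes were −0.92, 0.59 and 0.11, of which that of *beta-Man* passed the test (edgeR adjusted p = 0.0491). In the 1 Mb outside the edges, 1 of 37 genes tested was lower and 2 were higher on 3L (median −0.15), and 1 of 53 was lower and 1 higher on 3R (median 0.09).

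**Figure D3:**
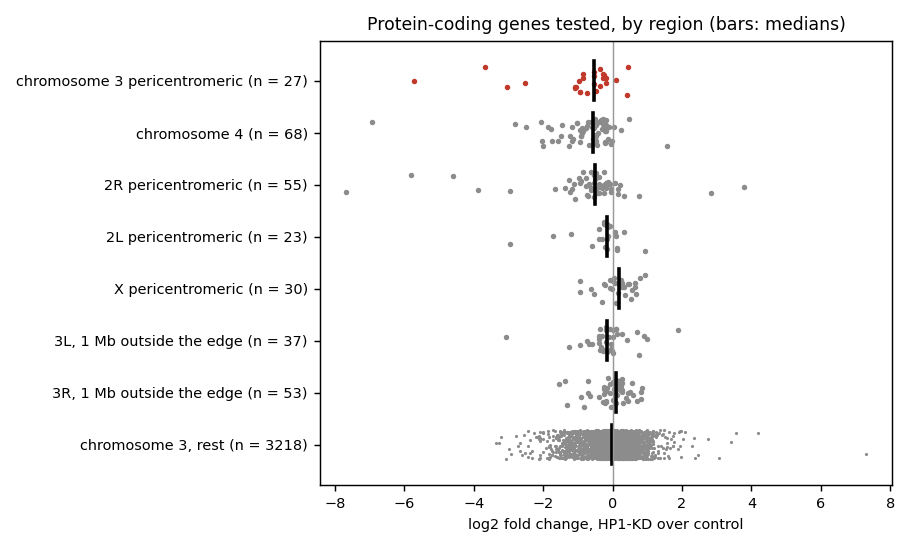
Log2 fold change of HP1-KD over control for each protein-coding gene tested, by region, with a black bar at the median. The median of the 27 pericentromeric genes of chromosome 3 (top, −0.54) lies beside those of chromosome 4 (−0.57) and the pericentromeric part of 2R (−0.50), and left of those of the other regions (−0.17 to 0.19). The vertical scatter of the points has no meaning.

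Of the pericentromeric genes of chromosome 3, 55.6% were lower and none higher, as given above. Of the 3218 protein-coding genes tested on the rest of that chromosome, 2.11% were lower and 3.33% higher, with a median of −0.01. The pericentromeric regions of other chromosomes were counted within the borders of the study. On 2R, 23 of 55 genes tested were lower (41.8%) and 2 higher (3.64%), with a median of −0.50. On 2L 3 of 23 were lower (13.0%) and 0 higher, with a median of −0.17, and on X 0 of 30 were called in either direction by edgeR, with a median of 0.19. At an unadjusted p under 0.05, 1 gene of X was lower and 7 were higher, DESeq2 called 1 lower and 2 higher, and limma-voom called 0. Chromosome 4, which is largely heterochromatic, had 20 of 68 lower (29.4%) and 0 higher, with a median of −0.57. On 2L and on chromosome 4 no gene was higher at an unadjusted p under 0.05 either, and DESeq2 and limma-voom called 0 higher. All these values come from the same libraries and the same fit, and no difference between regions was tested.

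Gene structure was then set against the change. The genes tested had a median length of 6.61 kb, beside 2.84 kb over all protein-coding genes tested. Of 11 genes of 10 kb or more, 8 were lower (median −0.94), and of 16 shorter genes 7 were lower (median −0.39). Over the 27 genes, the Spearman correlation of gene length with the log2 fold change was −0.36 (r = −0.34 with log10 length), and without *AGO3* and *nAChRalpha4* it was −0.22 (r = 0.09, n = 25). Length of the exons gave −0.61 (r = −0.39 on the log10 scale), and the level in control embryos, as RPKM on the log2 scale, gave 0.40 (r = 0.39). The relations over 27 genes, here and for insertions below, include *nAChRalpha4* and *CG40472*, which passed the filter on low counts only through control libraries. The 25 genes left without *AGO3* and *nAChRalpha4* still hold *CG40472*. Genes at a low control level can enter in that way only with a fall. The filter itself thus bears on the relation with level, and nothing is drawn from it. What underlies these relations was not tested, and the 27 values share libraries.

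Annotated transposon insertions covered 70.5% of *AGO3*, in 106 pieces, which was the highest share of the 27 genes, and 42.8% of *nAChRalpha4*, in 49 pieces. Both carried them almost wholly in introns, with 166 and 680 exonic bases. Over the 27 genes the Spearman correlation of this share with the log2 fold change was −0.10 (r = −0.42), and without *AGO3* and *nAChRalpha4* it was 0.16 (r = 0.22, n = 25). *alpha-Cat*, with 41.4% in 17 pieces, had a log2 fold change of −0.75, and *ND-MLRQ* and *Tim17b*, with 32.8% and 32.6%, had 0.10 and −0.36. *Vps11*, without any insertion, had −2.54. The 8 genes with insertions over 25% or more of their length had a median of −0.65 with 4 lower, the 5 with less had −0.94 with 3 lower, and the 14 with none had −0.53 with 8 lower. *Parp1* and *Dbp80* are long with few insertions. They span 126 and 143 kb, with insertions in 11.1% and 7.30% of their length.

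**Figure D4:**
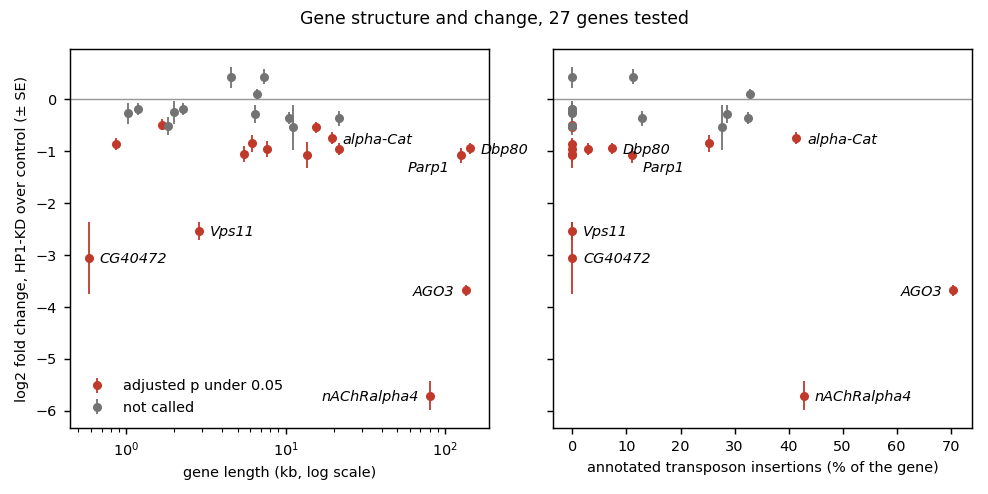
Log2 fold change of HP1-KD over control (± SE) of the 27 genes tested against gene length in kb on a log scale (left) and against the share of the gene covered by annotated transposon insertions in percent (right). *AGO3* and *nAChRalpha4* are long and rich in insertions, while *Vps11* and *CG40472*, with log2 fold changes of −2.54 and −3.05, are short and hold none.

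Levels per length ordered the genes by RPKM, on the scale of effective library sizes. In control embryos the order was led by *RpL10* (756 RPKM in HP1-KD and 857 in control embryos), *RpL15* (620 in HP1-KD, 707 in control), *ND-MLRQ* (171 in HP1-KD, 159 in control) and *eIF4B* (90.0 in HP1-KD, 131 in control). *AGO3* stood at 5.44 RPKM in HP1-KD and 69.9 in control embryos, where its neighbours in the order were *alpha-Cat* (44.4 in HP1-KD, 74.7 in control) and *CG41128* (57.2 in HP1-KD, 68.3 in control). *Vps11* stood at 7.97 RPKM in HP1-KD and 46.4 in control embryos, and *nAChRalpha4* at 0.115 in HP1-KD and 6.37 in control embryos. At the lower end in control embryos were *CG40160* (2.23 in HP1-KD, 4.71 in control), *CG40472* (0.378 in HP1-KD, 3.69 in control) and *CG17698* (2.33 in HP1-KD, 3.38 in control). The 39 genes together took up 0.687% ± 0.0322 of protein-coding counts in HP1-KD libraries (SD, n = 3) and 0.965% ± 0.0661 in control libraries (SD, n = 4), with no overlap. Without *RpL10* and *RpL15*, which did not pass the test, their share was 0.326% ± 0.0191 in HP1-KD and 0.561% ± 0.0350 in control libraries. Leaving out abundant genes that changed little widens the relative gap by itself, so the second share adds no separate evidence of a fall. Both shares rest on the authors' counts alone and use no scaling factor.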

How the data were processed

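Embryos at stage 5 were analysed in 3 HP1-KD and 4 control libraries (TruSeq Stranded Total RNA). The authors gave 1 row for each FlyBase gene, and values are estimated counts, deposited without normalization in steps of 0.5. The submitters' processing notes name STAR and dm6. The counting program and the handling of strand are not given in the sources used here. Positions, exons and transposon insertions came from the Ensembl 115 annotation in dm6 coordinates, which held 17561 of 17699 identifiers. No sequence was used.

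Counts were rounded. Genes were kept by filterByExpr, scaled by TMM and compared with the quasi-likelihood F-test of edgeR 4.0.16 (R 4.3.3). The model held condition alone, with Benjamini-Hochberg adjustment. The SE is the size of the log2 fold change divided by the square root of F. Normalized counts are counts scaled to the mean effective library size. RPKM divides them by that size and the exon length. The fit was tested on simulated data. Alternatives covered scaling, filters, genes fitted, rounding, a robust fit, a replicate block, DESeq2 1.42.0, limma-voom (limma 3.58.1), thresholds, the edges, and each library left out. Leaving out the 3 libraries with over 40% ribosomal RNA counts was added after the data were seen.

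Genes were named by rule: those called, the 5 most abundant, the 3 nearest to and the 3 farthest from the edge on each arm, and fixed role lists. All other members were added after their values were seen. Members and lists were chosen with earlier results of these data known. Conditions share replicate numbers, which were not taken as pairs.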

Additional observations from a re-analysis of the deposited data

Results flagged for a closer look

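Of the 27 genes tested, 1 had a control library far from the other 3 by Dixon's test, which flags about 1 in 20 groups by chance. *CG40472* had 39.6 normalized counts in control replicate 2, against 18.1 to 21.6 in the other control libraries.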

How the results depend on the processing

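The count of 15 of 27 genes lower in HP1-KD was between 12 and 17 under the other scalings, filters, gene sets and tools. Some of these changed the number tested. The count was 13 of 25 with at least 10 counts in every library, 14 of 39 without a filter and 12 of 21 without exon overlaps. The count was 16 of 81 with the edges moved outwards and 10 of 16 with them moved inwards. It was 8 at an adjusted p under 0.01, 7 when the log2 fold change also had to be 1 or more in size, and 2 without the libraries rich in ribosomal RNA. With 1 library omitted it lay between 9 and 18. No gene was called higher, except 2 with the edges moved outwards. The median of −0.54 was −1.80 under total count alone (all genes −1.15), −0.23 with the edges moved outwards and −0.74 without the libraries rich in ribosomal RNA. The Spearman correlation with distance, −0.02, was −0.10 with at least 10 counts in every library, −0.26 without exon overlaps (both as a filter on all genes and on the members), 0.33 with the edges moved inwards, −0.48 with them moved outwards and 0.034 without the libraries rich in ribosomal RNA. Under total count alone *ND-MLRQ* was at −1.08, *CG40045* at −0.77 and *Alg-2* at −0.72, and *ND-MLRQ* at −0.026 without the libraries rich in ribosomal RNA. The cause was not tested.

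With the replicate number as a block, 5 genes were lower (*AGO3*, *nAChRalpha4*, *Vps11*, *Parp1* and *CG41099*), and 96 of 8008 genes were called, against 688 without it. Deviations from the group means correlated at 0.46, −0.11 and 0.06 between libraries of the same number, and at −0.45 to 0.33 between the others. Whether libraries of the same number share more than that number cannot be told from these few values. Over all genes, 1488 were called by DESeq2, 1095 under total count alone, 439 of 6740 with at least 10 counts in every library, 181 to 1212 with 1 library omitted, and 404 of 7331 when only protein-coding genes were fitted. Counting error limits *CG40472* and *nAChRalpha4* in HP1-KD embryos and all 12 untested genes.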
